A study of Arabidopsis thaliana with 18 samples.

Results

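The genes described here are the 6 lipoxygenases of Arabidopsis thaliana and 4 enzymes that act after them in jasmonate synthesis, measured in guard cells given sucrose, mannitol or no sugar. The 10 genes were chosen by name and are LOX1 (AT1G55020), LOX2 (AT3G45140), LOX3 (AT1G17420), LOX4 (AT1G72520), LOX5 (AT3G22400), LOX6 (AT1G67560), AOS (AT5G42650), AOC1 (AT3G25760), OPR3 (AT2G06050) and JAR1 (AT2G46370). Each of the 10 was matched by its locus identifier to 1 of the 22746 probe sets in the table. The probe set of AOC1 is of a type that Affymetrix designed to match several transcripts, and no probe set carried the locus of its neighbour AOC2, so signal of AOC1 and AOC2 could not be told apart.

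Lipoxygenases add oxygen to polyunsaturated fatty acids. LOX2, LOX3, LOX4 and LOX6 add it at the carbon from which jasmonates are made in the plastid, whereas LOX1 and LOX5 add it at another carbon and feed other oxylipins. The product of the first group is turned by allene oxide synthase (AOS) and allene oxide cyclase (AOC) into oxophytodienoic acid, which OPR3 reduces in the peroxisome, and JAR1 joins the finished jasmonic acid to isoleucine to give the active hormone. Jasmonates are known from wounding and defence and are among the signals that can close stomata, and LOX1 has been linked to stomatal defence against bacteria.

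The 18 arrays came from hand-dissected guard cells of leaf strips of wild type Col-0 and of the rgs1 mutant in the same accession, which lacks the G-protein regulator RGS1 that takes part in sugar sensing. Strips of either genotype were kept for 5 h with no sugars, with 150 mM mannitol, which adds osmotic strength with little use as a carbon source, or with 150 mM sucrose, and each of the 6 groups held 3 arrays of 1 plant each. The RNA was amplified before labelling, and the deposited values are log2 signals on Affymetrix ATH1 arrays. By the study's methods 2 replicates came from different batches grown at overlapping times, and 1 from a batch grown some months later. The late one was taken to be replicate 3, which the labels do not state.

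RGS1 itself lay at log2 8.17 to 10.37 on the 9 wild type arrays and at 3.14 to 5.75 on the 9 rgs1 arrays. From 47.6% to 49.2% of the probe sets on an array were at log2 4 or above, the level used here as the floor of measurement. The 3 arrays least like the others were replicate 2 of wild type mannitol, with a mean correlation of 0.906 with the rest, replicate 2 of wild type sucrose, with 0.901, and replicate 1 of rgs1 sucrose, with 0.900. All 9 guard cell marker genes on the list passed the filter, and none changed by the test in any of the 3 comparisons of treatments. Phloem and bundle sheath markers, trichome markers and the epidermal gene PDF1 were below the filter, although the phloem gene SUC2 reached 8.69 and the trichome gene GL2 7.68 on wild type sucrose replicate 1, and GL1 5.61 on wild type no sugars replicate 3. The other epidermal gene on the list, ATML1, was above the filter, at log2 5.93 to 8.89 over the 18 arrays, so epidermal signal was present. Mesophyll markers were present, and their summed signal had a median of log2 14.50 with no sugars, 14.40 with mannitol and 13.53 with sucrose. Since the samples are bulk RNA, fewer cells of a type and less RNA per cell cannot be told apart.

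The question put to each gene was whether its signal followed sucrose, the osmotic load that sucrose and mannitol share, or the genotype. For the treatments, wild type and rgs1 arrays were pooled, giving 6 arrays against 6, and a gene was said to change where limma gave an adjusted p under 0.05 over all probe sets tested. The 3 treatment comparisons share arrays with each other, so their values are given side by side and are not independent. Among the 9 genes with a signal above the floor, the mean was highest with sucrose for 7, with mannitol for LOX1 and with no sugars for LOX6.

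**Figure D1:**
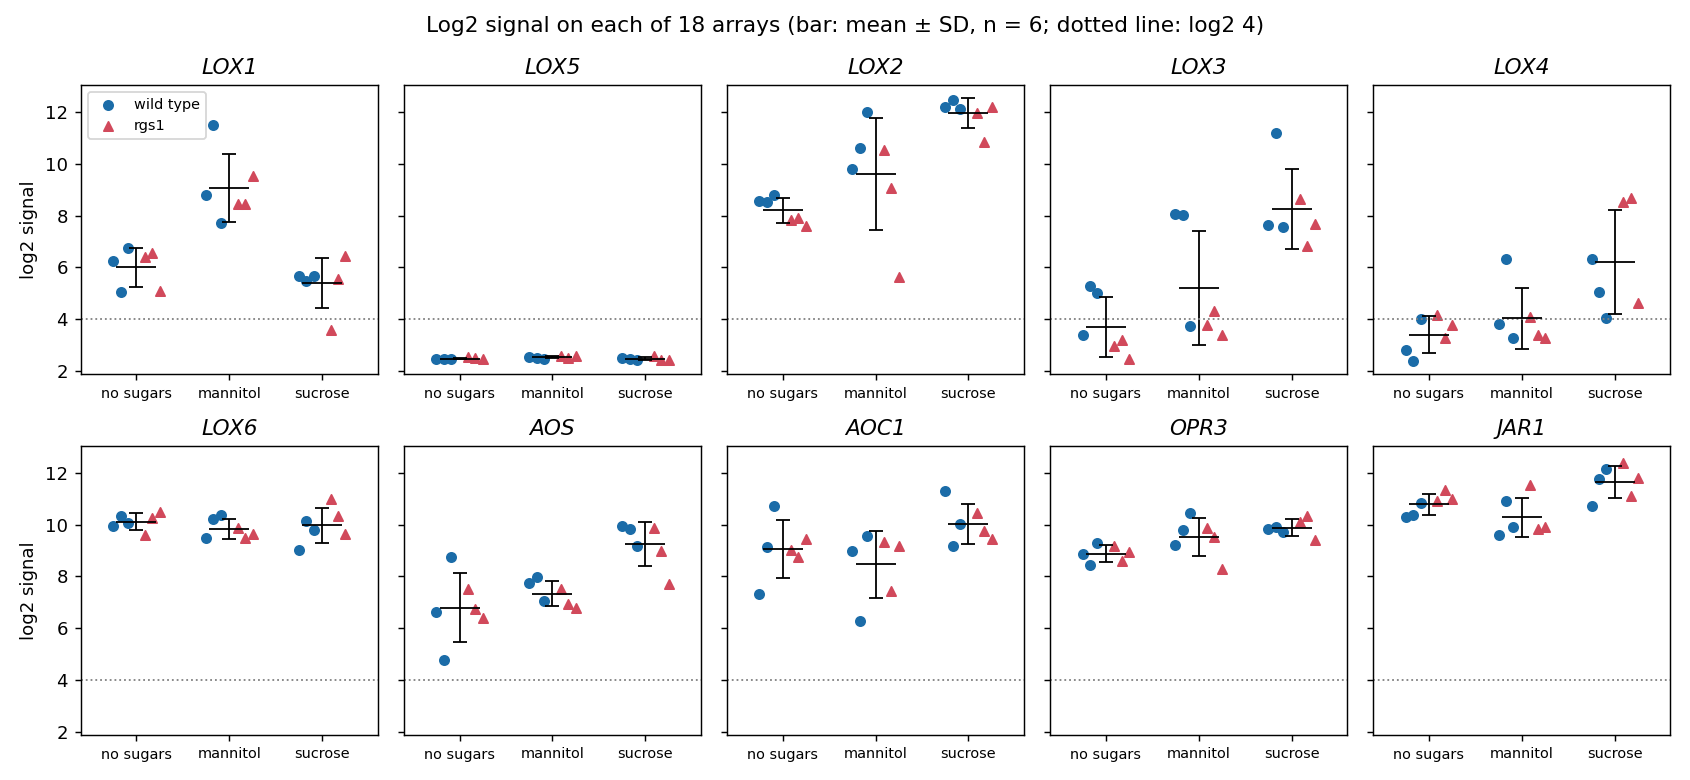
Log2 signal of each gene on each of the 18 arrays (vertical axis) by treatment (horizontal axis), with circles for wild type, triangles for rgs1, bars for the mean ± SD of 6 arrays and a dotted line at the log2 floor of 4. LOX1 stood highest with mannitol, LOX2, LOX3 and AOS stood highest with sucrose, and LOX5 lay at 2.40 to 2.58 throughout.

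LOX1 was high only in the mannitol strips. With no sugars the wild type arrays gave log2 6.26, 5.05 and 6.73 and the rgs1 arrays 6.40, 6.54 and 5.08. With mannitol the wild type arrays gave 8.78, 11.50 and 7.71 and the rgs1 arrays 8.44, 8.44 and 9.52. With sucrose the wild type arrays gave 5.67, 5.46 and 5.68 and the rgs1 arrays 3.57, 5.56 and 6.46. Every mannitol array therefore lay above every array of the other treatments, in both genotypes.

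In sucrose against mannitol, LOX1 fell 12.7-fold, a log2 fold change of -3.66 ± 0.61 (SE, n = 6 and 6; adjusted p = 0.00912). In mannitol against no sugars it rose 8.32-fold, by 3.06 ± 0.57 on the log2 scale (adjusted p = 0.0424). Between sucrose and no sugars the log2 difference was -0.61 ± 0.47 and did not pass the test (adjusted p = 0.487). Of all probe sets tested, 1.21% fell in sucrose against mannitol and 0.165% rose in mannitol against no sugars. The study had itself followed LOX1 as a sucrose-responsive gene on these arrays, so its change was known when the genes were chosen. Beyond the arrays, it lists LOX1 primers for real-time PCR and reports the same direction for every gene checked that way. It also lists a LOX1 insertion line among those with defects in stomatal movements.

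The fall of LOX1 in sucrose against mannitol passed the test when any of the 12 arrays was left out, with a log2 fold change between -3.93 and -3.18. Within replicates 1 and 2 it was -4.22 (adjusted p = 0.0388) and within replicate 3 it was -2.55 (adjusted p = 0.447, 2 arrays against 2). Without the 3 arrays least like the others, which held its highest mannitol and lowest sucrose values, it was -2.73 (adjusted p = 0.0297). This fall missed the threshold with no filter and without replicate 2 (adjusted p = 0.172 for the latter). The rise in mannitol against no sugars was less secure, because it missed the threshold when any array other than wild type mannitol replicates 2 and 3 was left out, with adjusted p up to 0.119, while the log2 fold change stayed between 2.57 and 3.33. That rise was 3.23 within replicates 1 and 2 (adjusted p = 0.167) and 2.71 within replicate 3 (adjusted p = 0.429).

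LOX5, the closest relative of LOX1 in this family by the reaction it carries out, had no signal above the floor. Its values ran from log2 2.40 to 2.58 over the 18 arrays, and it entered no test.

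LOX2, the abundant chloroplast lipoxygenase of leaves that supplies most of the jasmonate made after wounding, was highest with sucrose. With no sugars the wild type arrays gave log2 8.57, 8.54 and 8.80 and the rgs1 arrays 7.81, 7.92 and 7.58. With sucrose they gave 12.21, 12.48 and 12.10 in wild type and 11.96, 10.85 and 12.20 in rgs1. With mannitol the values were spread out, at 9.81, 10.60 and 12.01 in wild type and at 10.54, 9.08 and 5.64 in rgs1. Sucrose and no-sugar arrays did not overlap, and mannitol arrays reached from below the no-sugar arrays to the level of the sucrose arrays.

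LOX2 rose 13.6-fold in sucrose against no sugars, a log2 fold change of 3.76 ± 0.34 (adjusted p = 7.08e-05), which ranked 4 by p among the 10937 probe sets tested. It passed when any of the 12 arrays was left out, wild type sucrose replicate 1 included, with a log2 fold change between 3.64 and 3.99. It was 3.66 within replicates 1 and 2 and 3.96 within replicate 3, although with 2 arrays against 2 the latter did not pass (adjusted p = 0.108). Against mannitol the log2 difference with sucrose was 2.35 ± 0.81 and did not pass (adjusted p = 0.133). Mannitol against no sugars gave 1.41 ± 0.80 (adjusted p = 0.405), with an SD of 2.18 over the 6 mannitol arrays against 0.49 over the no-sugar arrays.

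LOX3, which acts with LOX4 in the jasmonate synthesis that male fertility needs, was near the floor without sugar and well above it with sucrose. With no sugars the wild type arrays gave log2 3.38, 5.26 and 4.99 and the rgs1 arrays 2.95, 3.18 and 2.45. With sucrose the values were 7.65, 11.18 and 7.54 in wild type and 8.63, 6.82 and 7.68 in rgs1. With mannitol, wild type replicates 1 and 2 reached 8.05 and 8.01, and the other 4 mannitol arrays lay between 3.39 and 4.30. The lowest sucrose array was above the highest no-sugar array, and the mannitol arrays divided between those 2 levels.

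In sucrose against no sugars LOX3 rose 23.4-fold, by 4.55 ± 0.70 on the log2 scale (adjusted p = 0.00356). It passed when any of the 12 arrays was left out (log2 3.96 to 4.86). Because most no-sugar arrays were under the floor, this size depends on how the background was set. LOX3 met the filter chiefly through its sucrose arrays, and a gene that enters the test this way has to differ. Its call was kept with no filter. The log2 fold change was 4.88 within replicates 1 and 2 and 3.89 within replicate 3 (adjusted p = 0.192 there). Against mannitol it was 3.04 ± 0.96 (adjusted p = 0.104).

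LOX4 had its highest values in sucrose strips of rgs1, at log2 8.52, 8.69 and 4.62, and gave 6.33, 5.03 and 4.05 in sucrose strips of wild type. Without sugar its 6 values ran from 2.38 to 4.17 with a median of 3.53, and with mannitol from 3.27 to 6.33 with a median of 3.60. The lowest sucrose array overlapped the no-sugar arrays. The log2 fold change in sucrose against no sugars was 2.80 ± 0.76 and just missed the threshold (adjusted p = 0.0543), and against mannitol it was 2.18 ± 0.83 (adjusted p = 0.173). LOX3 and LOX4 met the filter chiefly through the 6 sucrose arrays, and for mannitol against no sugars neither was tested.

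LOX6, the remaining lipoxygenase of the jasmonate branch, varied least over the 18 arrays among the lipoxygenases above the floor. Its values ran from log2 9.58 to 10.50 with no sugars, from 9.47 to 10.38 with mannitol and from 8.999 to 10.99 with sucrose. The log2 differences were 0.14 ± 0.35 in sucrose against mannitol (adjusted p = 0.878), -0.27 ± 0.27 in mannitol against no sugars (adjusted p = 0.650) and -0.13 ± 0.34 in sucrose against no sugars (adjusted p = 0.856).

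AOS, the enzyme that commits the lipoxygenase product to jasmonate, was higher with sucrose than with either control. The sucrose arrays gave log2 9.94, 9.81 and 9.19 in wild type and 9.88, 8.997 and 7.69 in rgs1. The mannitol arrays gave 7.76, 7.98 and 7.03 in wild type and 7.51, 6.94 and 6.77 in rgs1. The no-sugar arrays were more scattered, with 6.62, 4.76 and 8.76 in wild type and 7.51, 6.72 and 6.39 in rgs1. Only rgs1 sucrose replicate 3 fell within the range of the mannitol arrays.

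AOS rose 3.78-fold in sucrose against mannitol, by 1.92 ± 0.41 on the log2 scale (adjusted p = 0.0302), and 5.48-fold in sucrose against no sugars, by 2.46 ± 0.58 (adjusted p = 0.0340). Mannitol against no sugars gave 0.54 ± 0.53 (adjusted p = 0.643). Both calls were close to the threshold. The first was lost when replicate 3 of wild type mannitol, replicate 2 of wild type sucrose, replicate 2 or 3 of rgs1 mannitol or replicate 1 or 2 of rgs1 sucrose was left out (adjusted p up to 0.0730). The second was kept only without wild type no sugars replicate 3, rgs1 no sugars replicate 1 or rgs1 sucrose replicate 3, and was lost without any other array (adjusted p up to 0.0749). Within replicates 1 and 2 the log2 fold changes were 2.11 (adjusted p = 0.0527) and 3.25, and within replicate 3 they were 1.54 and 0.86, with adjusted p of 0.561 and 0.709.

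AOC1, which forms the ring of the jasmonates, varied widely within each treatment. Its values ran from log2 7.30 to 10.71 with no sugars, from 6.29 to 9.57 with mannitol and from 9.15 to 11.29 with sucrose, so that all 3 ranges overlapped. The log2 difference was 1.56 ± 0.57 in sucrose against mannitol (adjusted p = 0.156) and 0.97 ± 0.51 in sucrose against no sugars (adjusted p = 0.289). Neither passed, and the lowest mannitol value belonged to wild type mannitol replicate 2, 1 of the 3 arrays that stood apart.

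OPR3, the reductase of the peroxisomal step, had little scatter with no sugars and with sucrose. Its 6 no-sugar values ran from log2 8.44 to 9.28 with a median of 8.89, and its 6 sucrose values from 9.40 to 10.34 with a median of 9.88, so these did not overlap. The log2 difference was 1.01 ± 0.27 and missed the threshold (adjusted p = 0.0520). With mannitol it ranged from 8.29 to 10.45, across both other groups, and sucrose against mannitol gave 0.37 ± 0.36 (adjusted p = 0.644).

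JAR1, which makes the isoleucine conjugate that the receptor binds, was at log2 10.28 to 11.35 with no sugars, 9.60 to 11.53 with mannitol and 10.73 to 12.36 with sucrose. In sucrose against mannitol the log2 difference was 1.38 ± 0.41 (adjusted p = 0.0913), and in sucrose against no sugars it was 0.86 ± 0.34 (adjusted p = 0.158). Neither difference passed the test.

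**Figure D2:**
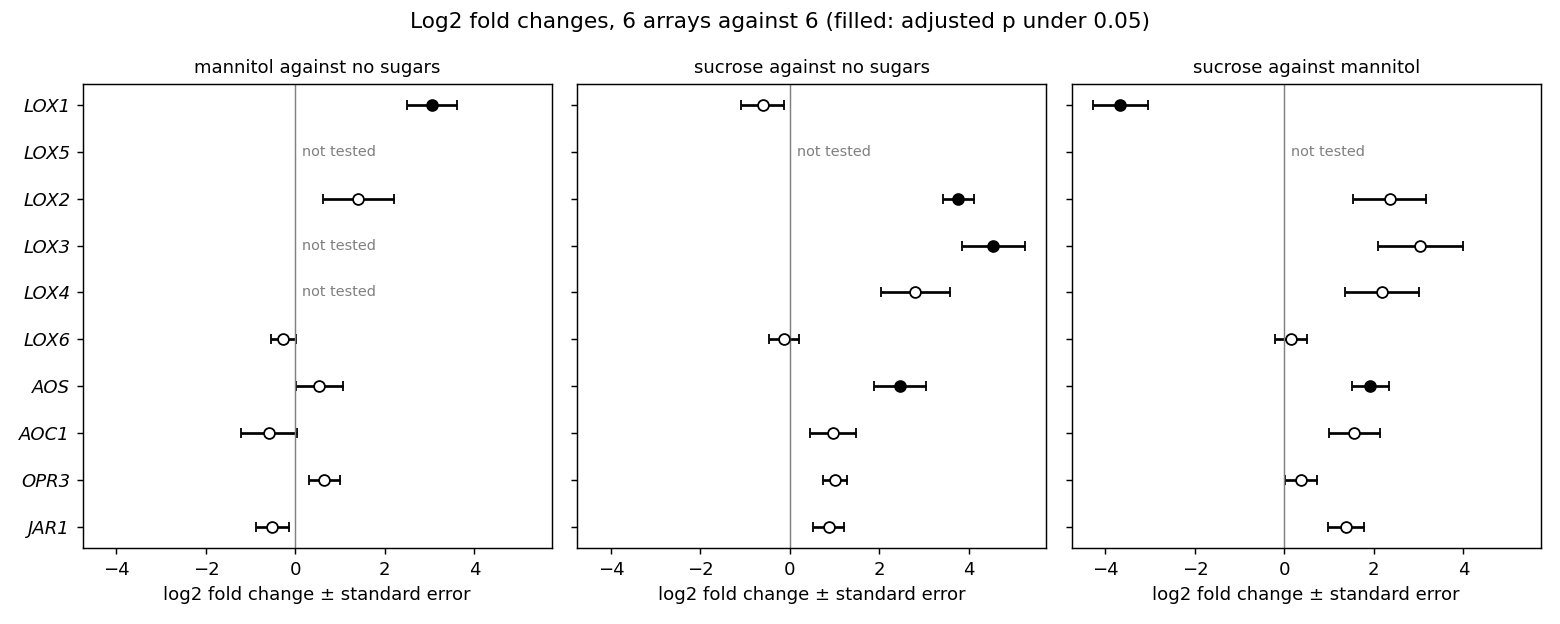
Log2 fold changes with standard errors (horizontal axis) of each gene (vertical axis) in the 3 comparisons of treatments, 6 arrays against 6, with filled points for an adjusted p under 0.05. LOX1 alone passed in mannitol against no sugars, LOX2, LOX3 and AOS passed in sucrose against no sugars, and LOX1 (lower) and AOS (higher) passed in sucrose against mannitol.

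Counted over the 10 genes, sucrose against no sugars raised 3 (LOX2, LOX3 and AOS) and lowered none of the 9 tested, where 2.34% of all probe sets tested rose. Mannitol against no sugars raised LOX1 alone of 7 tested, where 0.165% of all rose. Sucrose against mannitol raised AOS, where 1.15% of all probe sets rose, and lowered LOX1, where 1.21% fell. At an unadjusted p under 0.05 the counts were 6 of 9, 1 of 7 and 7 of 9, where all probe sets gave 21.4%, 15.7% and 18.7%. The median log2 fold change of the tested genes was 1.01 in sucrose against no sugars, 0.54 in mannitol against no sugars and 1.56 in sucrose against mannitol, and over all probe sets tested it was 0.01, -0.03 and 0.03. These counts and medians cover only the genes that passed the filter. LOX3 and LOX4 did so mainly through the sucrose arrays, so their rise with sucrose is in part built into the counts.

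The separation of single arrays describes the same values as the tests above and is no further support for them. In sucrose against no sugars the 6 sucrose arrays lay wholly above the 6 others for LOX2, LOX3 and OPR3, as for 1.78% of all probe sets tested. In mannitol against no sugars LOX1 was the one gene wholly above, as 0.779% of all probe sets were. In sucrose against mannitol LOX1 was the one gene wholly below, as for 1.47%, and none of the 10 was wholly above, as 1.33% of all probe sets were.

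Mesophyll markers are set beside LOX2 and AOS, which leaf mesophyll also expresses. The study reports that its sugar treatments changed RBCS expression. It also lists RBCS1A and LHCB2.2 among the most abundant guard cell transcripts, so these markers do not track mesophyll content alone. Of 6 mesophyll genes 5 were on the array, and none changed by the test. All 5 had lower means with sucrose than with either control. At an unadjusted p under 0.05 the counts were 4 of 5 in sucrose against no sugars and 1 of 5 in sucrose against mannitol. All probe sets gave 21.4% and 18.7% there. Their median log2 fold change was -1.31 in sucrose against no sugars and -1.001 in sucrose against mannitol. Their summed signal ran from log2 14.23 to 14.81 over the no-sugar arrays, from 13.44 to 14.57 over the mannitol arrays and from 12.65 to 14.42 over the sucrose arrays. For guard cell markers the summed signal ran from 15.66 to 15.90, from 15.41 to 16.08 and from 15.65 to 16.06 in the same order. The part of cell makeup in the values of the 10 genes was not tested.

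Separately in each genotype, with 3 arrays against 3, none of the 10 genes passed in sucrose against mannitol. In wild type 0.00898% of all probe sets passed, and at an unadjusted p under 0.05 the counts were 3 of the 9 genes tested and 8.92% of all probe sets. In rgs1 0.0268% passed, and at the unadjusted threshold 5 of 9 genes and 12.2% of all probe sets did. LOX1 had nearly the same size in both, a log2 fold change of -3.73 ± 0.92 in wild type (adjusted p = 0.395) and -3.60 ± 0.78 in rgs1 (adjusted p = 0.169), which differed by 0.13 ± 1.22. AOS gave 2.05 ± 0.50 in wild type (adjusted p = 0.395) and 1.78 ± 0.64 in rgs1 (adjusted p = 0.338).

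With all 3 replicates, LOX2, LOX3 and LOX4 had larger point values in rgs1. LOX3 gave 2.19 ± 1.41 in wild type (adjusted p = 0.675) and 3.89 ± 0.59 in rgs1 (adjusted p = 0.0827). LOX2 gave 1.46 ± 0.64 in wild type (adjusted p = 0.566) and 3.25 ± 1.17 in rgs1 (adjusted p = 0.342). LOX4 gave 0.66 ± 0.94 in wild type (adjusted p = 0.854) and 3.70 ± 1.06 in rgs1 (adjusted p = 0.256). The order depended on single replicates for LOX2 and LOX3. Without replicate 3, where rgs1 mannitol was at log2 5.64, LOX2 gave 2.14 in wild type and 1.59 in rgs1. Without replicate 1, LOX3 gave 3.48 in wild type and 3.40 in rgs1. For LOX4 the difference between genotypes stayed between 1.25 and 4.27 with replicates left out. The test of the difference between genotypes passed for none of these, nor for any of the 12608 probe sets, 0% of them. LOX4 came nearest among the 9 tested, with a difference of 3.04 ± 1.38 in its log2 fold change. It was the only one of them under 0.05 before adjustment, as 3.96% of all probe sets were.

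Over all treatments, 9 rgs1 arrays were set against 9 of wild type, and 0.00921% of all probe sets passed but none of the 10 genes. Before adjustment, 2 of the 9 tested and 5.27% of all probe sets were under 0.05. Those were LOX3, lower in rgs1 by a log2 fold change of -1.85 ± 0.60 (adjusted p = 0.875), and LOX2, at -1.28 ± 0.51 (adjusted p = 0.875). With replicates left out, LOX3 ran from -2.31 to -1.08 and LOX2 from -1.88 to -0.67. In the strips without sugar the values of LOX2 were 8.54 to 8.80 in wild type and 7.58 to 7.92 in rgs1, and those of LOX3 were 3.38 to 5.26 and 2.45 to 3.18.

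The rest of the jasmonate pathway was read from lists of 58 further genes, of which 52 were on the array. In sucrose against mannitol 1 of 42 tested rose and none fell, where 1.15% of all probe sets rose. In mannitol against no sugars 1 of 41 rose and none fell, where 0.165% of all rose. In sucrose against no sugars 1 of 43 rose and 1 fell, where 2.34% of all rose and 1.76% fell, so this count was near the background. Their median log2 fold changes were -0.10, 0.13 and -0.01.

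The gene that rose with sucrose was AOC3 (AT3G25780), an allene oxide cyclase whose locus lies next to AOC2 and 2 places from AOC1. Its sucrose values ran from log2 4.61 to 8.22 with a median of 6.63, against 2.09 to 4.15 with mannitol and 2.15 to 4.68 with no sugars. The mannitol and sucrose arrays did not overlap. AOC3 rose 9.52-fold in sucrose against mannitol (log2 3.25 ± 0.63, adjusted p = 0.0191) and 7.16-fold in sucrose against no sugars (2.84 ± 0.63, adjusted p = 0.0260), from controls mostly under the floor. AOC3 met the filter chiefly through its 6 sucrose arrays, since 2 of the 6 arrays of either control reached log2 4, and a gene that enters the test this way has to differ. With no filter its calls were lost (adjusted p = 0.0808 and 0.0850). Within replicates 1 and 2 these were 3.65 and 3.92, and within replicate 3 they were 2.46 and 0.69, with adjusted p of 0.376 and 0.457. Without wild type sucrose replicate 2 or rgs1 sucrose replicate 2 both calls were lost, the first also without rgs1 mannitol replicate 2 and the second without rgs1 no sugars replicate 1 (adjusted p up to 0.0505 and 0.0575).

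ACX5 (AT2G35690), an acyl-CoA oxidase of the family that shortens the side chain of the jasmonate precursor, fell 4.00-fold in sucrose against no sugars (log2 -2.001 ± 0.50, adjusted p = 0.0403). Its sucrose values ran from log2 4.76 to 6.97 and its no-sugar values from 6.87 to 9.33, with an overlap of 1 sucrose array. The call held only without wild type no sugars replicate 1 or 3, wild type sucrose replicate 3 or rgs1 sucrose replicate 1 or 3, and ended without any other array (adjusted p up to 0.0908). The log2 fold change was -2.27 within replicates 1 and 2 and -1.47 within replicate 3, neither past the threshold (adjusted p = 0.117 and 0.380).

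ST2A (AT5G07010), a sulfotransferase that acts on hydroxylated jasmonate in its breakdown, rose with mannitol as LOX1 did. Its no-sugar values ran from log2 8.30 to 9.82 and its mannitol values from 10.24 to 13.21, with no overlap. ST2A rose 7.72-fold in mannitol against no sugars (log2 2.95 ± 0.49, adjusted p = 0.0238). With sucrose, unlike LOX1, it ranged from 8.67 to 13.11, and sucrose against no sugars gave 2.35 ± 0.63 (adjusted p = 0.0518). The mannitol call was lost without wild type mannitol replicate 2, wild type no sugars replicate 3, rgs1 mannitol replicate 1 or 3 or rgs1 no sugars replicate 1 or 2 (adjusted p up to 0.0647). Its log2 fold change was 2.89 within replicates 1 and 2 (adjusted p = 0.162) and 3.08 within replicate 3 (adjusted p = 0.351).

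The lists of jasmonate perception, response and competing branches held no gene that passed. These were the 6 receptor, co-repressor and transcription factor genes, the 10 JAZ repressors tested, the 4 response markers tested and the 3 genes tested of competing branches. Of all probe sets, 2.36% passed in sucrose against mannitol, 0.275% in mannitol against no sugars and 4.11% in sucrose against no sugars, so lists of this size would hold few or no calls at the background share. The gene with the highest mean signal of each list is given, and it need not stand for its list. In sucrose against no sugars the log2 differences of the 10 JAZ genes tested ran from -1.65 to 2.84, with 4 of them positive. At an unadjusted p under 0.05 there were 3 of the 10, where all probe sets gave 21.4%. JAZ1 (AT1G19180), a repressor that jasmonate itself induces, had log2 differences of 0.01 ± 0.41, -0.10 ± 0.36 and -0.09 ± 0.49 in sucrose against mannitol, mannitol against no sugars and sucrose against no sugars. TPL (AT1G15750), the general co-repressor, gave -0.14 ± 0.34, 0.03 ± 0.34 and -0.11 ± 0.32. OPR2 (AT1G76690), a reductase related to OPR3 with a shared probe set, gave 0.35 ± 0.36, -0.75 ± 0.30 and -0.40 ± 0.36. JAL35 (AT3G16470), a jacalin-related lectin that jasmonate induces, had larger differences than the other 3 genes named here, with 0.45 ± 0.58, 1.87 ± 0.67 and 2.32 ± 0.65, of which the last came nearest to the threshold (adjusted p = 0.0605).

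**Figure D3:**
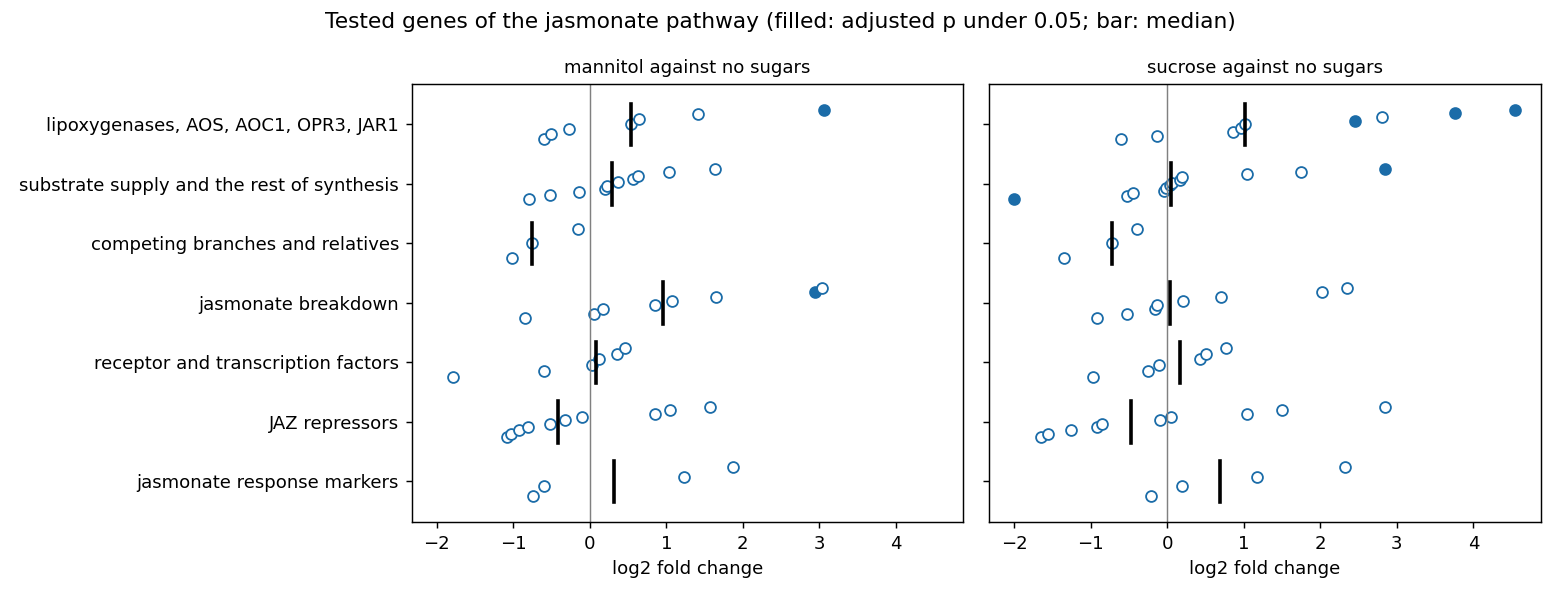
Log2 fold changes (horizontal axis) of the tested genes of each jasmonate list (rows) in mannitol against no sugars and sucrose against no sugars, with filled points for an adjusted p under 0.05 and bars for the list medians. The genes that passed were LOX1 and ST2A with mannitol, and LOX2, LOX3, AOS, AOC3 and ACX5 (lower) with sucrose.

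The 5 genes whose signal over the 18 arrays was most like that of LOX1 were picked from 12511 probe sets of single genes by Pearson's r, as a description. They were CYP71B6 (AT2G24180; r = 0.917), a cytochrome P450, BGLU16 (AT3G60130; 0.881), a beta-glucosidase, PPDK (AT4G15530; 0.864), pyruvate orthophosphate dikinase, AAT1 (AT4G21120; 0.859), an amino acid transporter, and ZDS (AT3G04870; 0.851), a carotenoid desaturase. Without the 2 arrays farthest from the LOX1 median, wild type mannitol replicate 2 and rgs1 mannitol replicate 3, r fell to between 0.714 and 0.822. The mean log2 signal of CYP71B6 was 10.06 ± 0.58 with no sugars, 11.41 ± 0.76 with mannitol and 9.94 ± 0.50 with sucrose (SD, n = 6), a narrower swing than the 6.01 ± 0.75, 9.07 ± 1.33 and 5.40 ± 0.96 of LOX1.

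**Figure D4:**
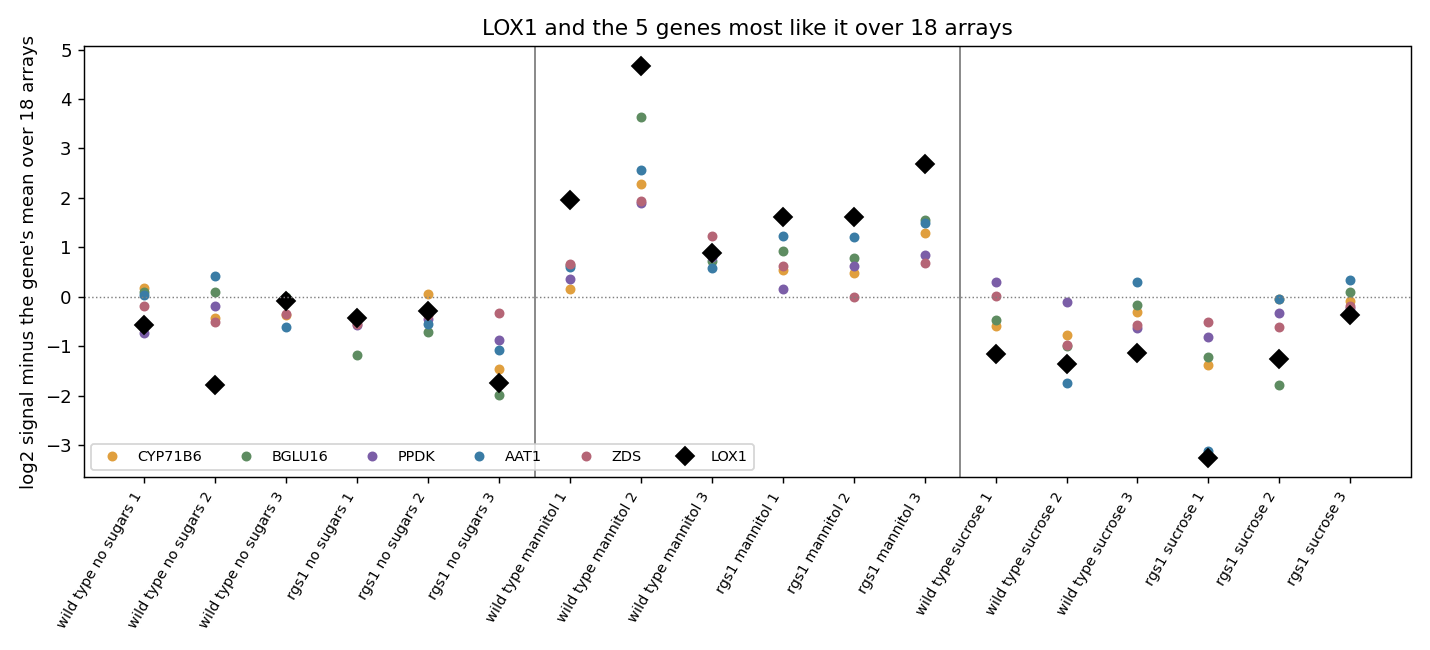
Log2 signal minus each gene's own mean over 18 arrays (vertical axis) on each array (horizontal axis), for LOX1 (diamonds) and the 5 genes most like it (dots), in the order no sugars, mannitol and sucrose. The mannitol arrays of LOX1 stood above its mean, and wild type mannitol replicate 2, at log2 11.50, stood highest.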

How the data were processed

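Guard cell RNA from 18 leaf strip samples was amplified and hybridised to Affymetrix ATH1 arrays. Per the labels and the study's methods, the authors corrected background, normalized and summarised the arrays by GCRMA, and the deposited values are log2 signals. The deposited tables, 1 by probe set and 1 with gene identifiers, held identical values for 22746 probe sets. The number of arrays limits the precision.

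The 10 genes and the gene lists were chosen with earlier results of these data known. Where a locus has several probe sets, the one with the highest mean over 18 arrays was used. All 10 were named, together with pathway genes that passed in a comparison of pooled genotypes, the gene with the highest mean of each pathway list without one, and the 5 genes most like LOX1. Neighbouring loci and the symbols of those 5 genes were taken from RefSeq gene annotation (TAIR10.1), to which 22091 identifiers matched.

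Tests were fitted with limma 3.58.1 in R 4.3.3 (lmFit and eBayes) after the study's methods. A probe set was tested where at least as many arrays as the smaller group reached log2 4, and p-values were adjusted by Benjamini-Hochberg over all of them, with a threshold of 0.05. Samples were separate plants, and the smallest groups held 3. The fit was run on simulated data with independent noise between arrays, which checked the estimates it returned. That simulation held no batches and no outlying arrays, so it does not bear on how stable the calls are. Alternatives were another floor or none, quantile normalization, median centring, an intensity trend, the replicate number as a block, genotype or the later batch as a term, replicates 1 and 2 alone, replicate 3 alone, all 18 arrays in 1 fit, and leaving out replicates or arrays. Leaving out the 3 arrays least like the others was chosen after seeing the data.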

Additional observations from a re-analysis of the deposited data

Results flagged for a closer look

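Of 30 sets of 6 arrays of 1 treatment (10 genes, 3 treatments), 3 held an array far from the other 5, by Dixon's test of the gap to the nearest array over the whole range, and chance flags about 5% of such sets. LOX4 was at log2 6.33 on wild type mannitol replicate 2, where the other mannitol arrays lay between 3.27 and 4.09. LOX1 was at 3.57 on rgs1 sucrose replicate 1, where the other sucrose arrays lay between 5.46 and 6.46. LOX2 was at 10.85 on rgs1 sucrose replicate 2, where the other sucrose arrays lay between 11.96 and 12.48. The first 2 of these arrays were among the 3 with the lowest mean correlation with the rest.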

How the results depend on the processing

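LOX1 in sucrose against mannitol and LOX2 in sucrose against no sugars kept their direction under all 27 alternatives. The first missed the threshold with no filter, without replicate 2 and within replicate 3, and the second within replicate 3. The 2 of the 10 genes that passed in sucrose against mannitol became 0 with no filter, 1 within replicates 1 and 2, 0 within replicate 3, 1 without the 3 arrays least like the others and 0 to 3 when replicates or arrays were left out. The 1 in mannitol against no sugars became 0 with no filter, with the replicate block, with genotype as a term, within replicates 1 and 2 and within replicate 3, and 0 to 1 with replicates or arrays left out. The 3 in sucrose against no sugars became 5 with an intensity trend (LOX4 and OPR3 added), 2 without the 3 arrays (AOS lost, adjusted p = 0.131), 0 within replicate 3 and 1 to 5 with replicates or arrays left out. AOC3 was also lost without the 3 arrays, in sucrose against no sugars (adjusted p = 0.0898) and against mannitol (adjusted p = 0.138). LOX3 in sucrose against no sugars missed the threshold without replicate 1 (adjusted p = 0.0618). Under the 27 alternatives the AOS call was lost in 14 for sucrose against no sugars and in 14 for sucrose against mannitol. With all 18 arrays in 1 fit, LOX2 (adjusted p = 0.0412) and LOX3 (adjusted p = 0.0314) also passed in sucrose against mannitol, and AOS did not (adjusted p = 0.0551).

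Differences that had not passed the test changed sign as follows. LOX6 in sucrose against mannitol was -0.30 within replicate 3, -0.078 without the 3 arrays and -0.060 to 0.36 with replicates or arrays left out, and in sucrose against no sugars it was 0.087 within replicates 1 and 2 and -0.33 to 0.087 with replicates or arrays left out. In mannitol against no sugars AOS was -0.68 within replicate 3 and -0.054 to 1.15, and AOC1 -1.39 to 0.15, with replicates or arrays left out. In sucrose against no sugars LOX1 was 0.16 and AOC1 -0.33 within replicate 3. LOX4 in wild type, sucrose against mannitol, was -0.26 to 1.64 with replicates left out.

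Counts over all probe sets moved more. The 259 of sucrose against mannitol became 57 with no filter, 6 without replicate 2, 110 without replicate 3, 0 within replicate 3, 30 without the 3 arrays and 496 with all 18 in 1 fit. The 30 of mannitol against no sugars became 5 with no filter, 0 without replicate 2, 5 without replicate 3, 16 without the 3 arrays and 14 to 65 with single arrays left out. The 449 of sucrose against no sugars became 164 with no filter, 27 without replicate 2 and 173 without the 3 arrays. The 1 in wild type became 0 to 15, and the 3 in rgs1 0 to 68, under the alternatives.

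The arrays showed no clear pairing by replicate number. Deviations of same-numbered pairs of different groups had correlations from -0.20 to 0.25, against -0.30 to 0.24 for differently numbered pairs. Of the 45 same-numbered pairs 8 were above 0.1, a share not counted for the others. With 3 arrays in a group, weak pairing could be missed. The replicate block left LOX1 at 3.06 in mannitol against no sugars with an adjusted p of 0.0726 and ended no other call of the 10 genes, though it took the calls over all probe sets within single genotypes to 0. Signals under log2 4 limit LOX3, LOX4 and AOC3, whose fold changes depend on background correction, and LOX5 was not measurable here. Within replicate 3, with 2 arrays against 2, no probe set passed in any comparison of treatments, so a call missed there says little of the gene.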
